A study of Mus musculus with 12 samples.

Results

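Alternate day fasting was compared with feeding in tibialis anterior muscle that carried an added Crtc2 gene. The comparison holds 6 of the 12 libraries of the series, chosen by their labels alone: 3 labelled ADF_Crtc2 and 3 labelled Fed_Crtc2. Both groups were C57BL/6 males aged 13 weeks whose tibialis anterior, a shin muscle, had been transduced with a Crtc2 expression vector, so the fed controls carried the added Crtc2 too. The ADF_Crtc2 group had 3 rounds of fasting on alternate days (ADF), and the Fed_Crtc2 mice ate ad libitum. The remaining 6 libraries, ADF_GFP and Fed_GFP, share the strain, sex, age and diets, with a GFP vector in that muscle, and are set beside the Crtc2 values where they bear on them. The labels do not say whether the vectors were in opposite legs of the same mice, and the fit takes all 12 libraries as independent. The labels give no promoter for the vector, no share of fibres that took it up and no hour of sampling within the fasting cycle. Separate animals are not stated for the replicates of a group, and p-values then measure only how far libraries differ, which may be technical. The protocols name 2 library kits without assigning them to libraries, and a kit that followed the diet cannot be told apart from fasting.

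Crtc2 is a coactivator that is held in the cytoplasm by salt-inducible kinases. When cyclic AMP rises, as it does in muscle under adrenaline, protein kinase A inhibits those kinases, and Crtc2 enters the nucleus and joins Creb1 on cyclic AMP response elements. Fasting lowers insulin and raises glucocorticoids. In muscle this is known to release FoxO factors, to close pyruvate dehydrogenase through its kinases, to favour fat as a fuel and to speed protein breakdown by ubiquitin ligases and autophagy.

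The 6 libraries held 24771100 to 31484693 counts, and the fit covered 16007 genes of 22607. Levels are CPM, counts brought to a common library size with factors from the trimmed mean of M values (TMM), and 3 values for a group stand in the order of replicates 1 to 3. The first principal component, with 56.1% of the variance over 7789 genes, parted the diets: the Fed libraries lay between -55.6 and -31.0 and the ADF libraries between 35.2 and 48.2. Fed_Crtc2 1 stood apart from the other Fed libraries on the second component, which held 18.3% of the variance (-41.0 against 24.7 and 28.9). It also had the largest share of zero counts, 35.9% among genes whose mean lay at 1 to 3 CPM, where Fed_Crtc2 2 and 3 had 4.83 and 6.69% and the ADF libraries 21.6 to 30.1%. Crtc2 itself checked the labels. Its level was 64.9, 58.2 and 77.9 CPM in the Fed_Crtc2 libraries and 42.8, 40.6 and 31.4 CPM in the ADF_Crtc2 libraries, against 29.2, 17.3 and 24 CPM in Fed_GFP and 19.7, 16.1 and 23.6 CPM in ADF_GFP. All 6 Crtc2 libraries were above all 6 GFP libraries. The table holds 1 row for Crtc2, so transcripts of the added and of the mouse's own gene cannot be told apart. Within the Crtc2 muscles the 3 ADF values lay below the 3 Fed values, but the log2 fold change of -0.81 ± 0.27 (standard error, as for all log2 fold changes below) did not pass the test (adjusted p = 0.0623, edgeR). It passed with DESeq2 (adjusted p = 0.0369), with the 6 Crtc2 libraries alone (0.0344), with library totals (0.014) and among genes that averaged 10 CPM or more (0.0221), and the adjusted p ran from 0.0589 to 0.234 in the other alternatives.

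Alternate day fasting changed 1758 genes at an adjusted p under 0.05 (edgeR's quasi-likelihood test with Benjamini-Hochberg adjustment over all genes tested, as for every adjusted p below), which is 11.0% of those tested. Of these, 1009 rose (6.30%) and 749 fell (4.68%). The split depended on the scaling. With plain library totals, which moved the median of all genes from -0.13 to -0.43, 29.3% of the called genes were higher, against 57.4% with TMM, and DESeq2 gave 45.9%. The genes that rose were abundant: they took 19.7 to 20.9% of all counts in the Fed libraries and 35 to 37.1% in the ADF libraries, and their median log2 fold change was 1.09. Of the 1274 genes with a mean over 100 CPM, 38.4% rose and 6.04% fell. Of the 3646 genes between 10 and 30 CPM, 2.99% rose and 8.15% fell. The shares over 100 CPM are the nearer background for the lists of abundant muscle genes below. The genes that fell took 7.82 to 9.04% of counts in the Fed libraries and 2.96 to 3.41% under ADF, with a median log2 fold change of -1.68. A call is said below to have held where the gene was called the same way in each of the 6 fits that left out 1 of these libraries: 539 rises and 311 falls held. The 3 against 3 values did not overlap for 1007 of the rises and 728 of the falls, and for 30.5% of all genes tested.

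**Figure D1:**
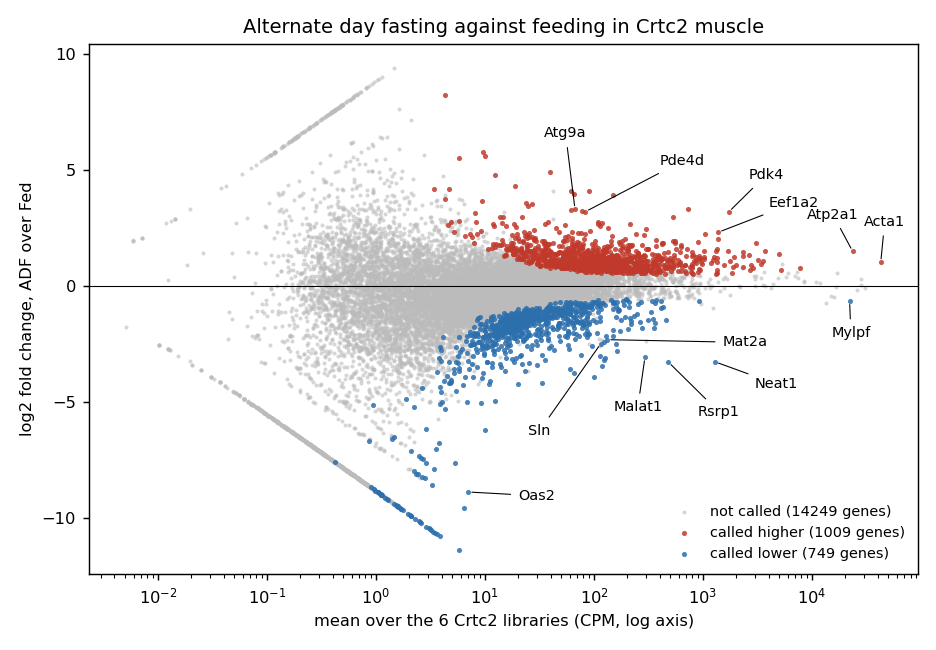
Mean level over the 6 Crtc2 libraries (CPM, log axis) against the log2 fold change of ADF over Fed, 1 point per gene tested. The 1009 genes called higher (red) reach to the most abundant genes such as Acta1 and Atp2a1, while most of the 749 called lower (blue) lie at lower levels, and genes at 0 in a group form the straight edges.

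The 15 rises with the smallest adjusted p held transcription factors, a motor protein and enzymes as well as known fasting genes. Nfix, a nuclear factor I family member, was at 55.1, 50.9 and 70.6 CPM in Fed and 362, 381 and 366 CPM in ADF. It rose by 2.65 ± 0.19 (adjusted p = 1.14e-08), and its relative Nfic, at 194, 167 and 157 CPM in Fed and 552, 560 and 586 CPM in ADF, rose by 1.71 ± 0.17 (adjusted p = 1.27e-06). In both genes the lowest ADF library was far above the highest Fed library. The kinesin motor Kif1c was at 329.9, 288 and 472 CPM in Fed and 2046, 1496 and 1641 CPM in ADF. The mitochondrial phosphatase Pptc7 was at 30.8, 33.9 and 32.3 CPM in Fed and 202, 182 and 205 CPM in ADF. Lars2, mitochondrial leucyl-tRNA synthetase, was at 145, 130.2 and 123 CPM in Fed and 1336, 1473 and 1177 CPM in ADF, but this gene carries a stretch like ribosomal RNA, so its counts are uncertain. All 5 rose in the GFP muscles too, with log2 fold changes of 2.72 for Nfix, 2.09 for Nfic, 1.52 for Kif1c, 1.68 for Pptc7 and 2.96 for Lars2.

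**Figure D2:**
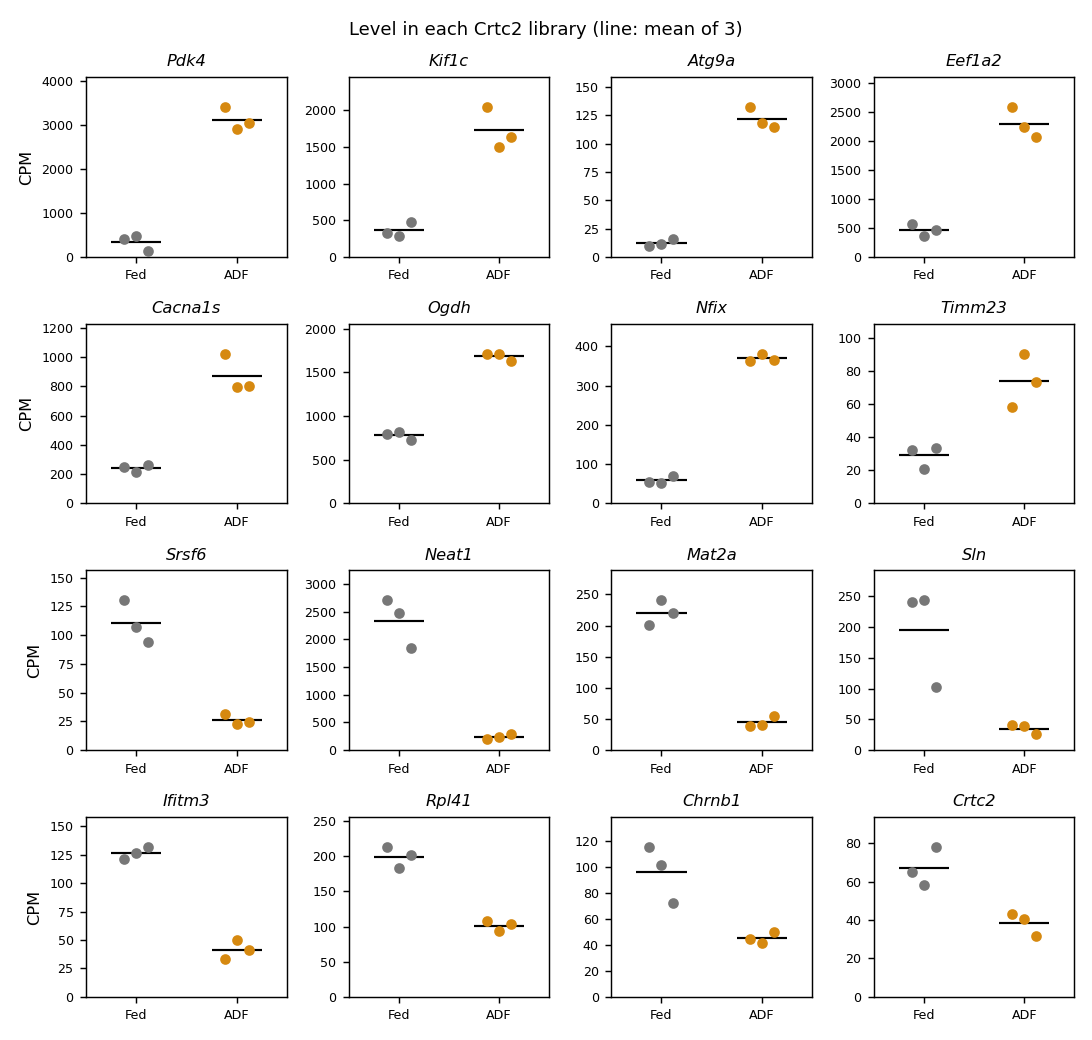
Level of 16 genes in each of the 6 Crtc2 libraries (CPM, each panel from 0), Fed in grey and ADF in orange, with a line at the mean of 3. The Fed and ADF points do not overlap in any panel, although the difference in Crtc2 did not pass the test.

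Genes that decide whether pyruvate enters oxidation were higher. Of 14 tested genes of pyruvate dehydrogenase and its regulators, 8 rose, of which 5 held (5 without ADF_Crtc2 2 or ADF_Crtc2 3), and 0 fell (median log2 fold change 0.80, 0.51 with library totals). Kinases that close the enzyme and the regulator of the phosphatase that reopens it were both among the rises. Pdk4 (chromosome and span chromosome 6, 5483351 to 5496309 on GRCm38) was at 403, 477 and 139 CPM in Fed and 3398, 2897 and 3044 CPM in ADF, with Fed_Crtc2 3 the lowest library. Pdk2 varied least between libraries and was at 346, 295 and 421 CPM in Fed and 1076, 1070.3 and 1084 CPM in ADF, a rise of 1.6 ± 0.18 (adjusted p = 4.56e-06). Pdk1 rose by 1.1 ± 0.25 (adjusted p = 0.00559), beside 0.19 ± 0.25 in the GFP muscles (adjusted p = 0.776). All 3 kinases were higher in each ADF library than in any Fed library. Pdpr, the regulatory subunit of the phosphatase, was low in Fed muscle, at 3.24, 10.6 and 16.2 CPM in Fed and 196, 148 and 166 CPM in ADF. Pdha1, the alpha subunit of the first enzyme of the complex, was at 629.7, 552 and 358 CPM in Fed and 1181, 1257 and 1248 CPM in ADF (1.26 ± 0.21). The rise of Dlat, its second enzyme, did not hold (0.90 ± 0.25, adjusted p 0.101 without Fed_Crtc2 3), nor did that of the pyruvate carrier Mpc1 (0.70 ± 0.22, adjusted p 0.188 without Fed_Crtc2 1).

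Most genes of the carnitine shuttle and beta-oxidation rose, while those of fatty acid uptake and activation were mixed. Among 17 genes of fatty acid uptake and activation 7 rose (6 held) and 2 fell (1 held), with 9 of the 17 at a positive log2 fold change, and of 23 genes of the carnitine shuttle and beta-oxidation 14 rose (12 held) and 1 fell. The fatty acid transporter Slc27a1 was at 59.2, 52.9 and 52.5 CPM in Fed and 179, 109 and 164 CPM in ADF, and the lipoprotein receptor Vldlr at 177, 219 and 167 CPM in Fed and 618, 464 and 398 CPM in ADF. The binding proteins that carry fatty acids inside the cell split. Fabp3, the form of heart and muscle, was at 375, 375 and 261 CPM in Fed and 603, 646 and 819 CPM in ADF and rose by 1.03 ± 0.21 (adjusted p = 0.0019). Fabp5, which is abundant outside muscle fibres, was at 38.8, 32.4 and 21.9 CPM in Fed and 6.91, 13.8 and 7.57 CPM in ADF and fell by 1.72 ± 0.41 (adjusted p = 0.00717). In bulk muscle, fewer cells of a type and less RNA per cell cannot be told apart. Acacb, the muscle acetyl-CoA carboxylase whose product blocks fatty acid entry into mitochondria, was at 169, 169 and 208 CPM in Fed and 781, 587 and 583 CPM in ADF and rose by 1.84 ± 0.20 (adjusted p = 2.58e-06), beside the rises of genes that take fatty acids in. The acyl-CoA dehydrogenases for medium, long and short chains rose, by 1.21 ± 0.19 for Acadm, 1.12 ± 0.20 for Acadl and 1.41 ± 0.25 for Acads. The carnitine carrier Slc25a20 (1.17 ± 0.22) and the hydratase Echs1 (1.33 ± 0.20) rose by like amounts. Cpt1b, the muscle form of the enzyme that commits fatty acids to oxidation, was low, at 8.41, 9.52 and 6.03 CPM in Fed and 13.3, 11.2 and 8.78 CPM in ADF, and did not pass the test (adjusted p = 0.666). Angptl4, an inhibitor of lipoprotein lipase (1.15 ± 1.17, adjusted p = 0.646), and fatty acid synthase Fasn (0.45 ± 0.46, adjusted p = 0.643) did not pass it either. Ucp3, the muscle uncoupling protein, was at 203, 165 and 79.7 CPM in Fed and 498, 400.5 and 465 CPM in ADF, with Fed_Crtc2 3 lowest as for Pdk4. Mlxipl, the carbohydrate-responsive factor ChREBP, was at 220.3, 108 and 134 CPM in Fed and 57.9, 58.6 and 42.9 CPM in ADF and fell by 1.54 ± 0.26 (adjusted p = 0.000334).

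In the TCA cycle 9 of 23 genes rose (6 held) and 0 fell, a share of 39.1% that is near the 38.4% of all genes over 100 CPM that rose. Ogdh, the first enzyme of the oxoglutarate dehydrogenase complex, was at 795, 818 and 728 CPM in Fed and 1714, 1711 and 1629.7 CPM in ADF, so that the lowest ADF library was above the highest Fed library. It rose by 1.11 ± 0.18 (adjusted p = 0.00025). The ligase subunit Sucla2 rose by 1.07 ± 0.18 and the succinate dehydrogenase anchor Sdhd by 0.89 ± 0.20. Idh3b, a subunit of isocitrate dehydrogenase, was at 631, 577 and 529 CPM in Fed and 964, 988 and 1059 CPM in ADF and rose by 0.79 ± 0.16, beside 0.07 ± 0.16 in the GFP muscles. The rise of citrate synthase Cs (0.58 ± 0.16) did not hold (adjusted p 0.114 without Fed_Crtc2 3). Branched-chain amino acid breakdown, which also feeds the cycle, had 7 of 20 genes up (4 held, 4 without ADF_Crtc2 1 or Fed_Crtc2 1) and 0 down. Glutamine synthetase Glul, which muscle uses to export nitrogen, was at 268, 269 and 175 CPM in Fed and 928, 586 and 381 CPM in ADF, with the 3 ADF libraries far apart and ADF_Crtc2 1 highest. Glutamate dehydrogenase Glud1 rose by 1.08 ± 0.18, and the glutamine transporter Slc38a3, at 412, 201 and 218 CPM in Fed and 126, 108 and 98.3 CPM in ADF, fell by 1.32 ± 0.25. Mat2a, which makes S-adenosylmethionine, the methyl donor of the cell, was at 201, 240.3 and 219.7 CPM in Fed and 38.5, 40.8 and 54.0 CPM in ADF. It fell by 2.31 ± 0.20 (adjusted p = 1.88e-07).

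Few respiratory chain genes were called, and those called went both ways. Of 39 complex I genes 4 rose and 3 fell, of which 1 and 1 held, and of 49 genes of complexes III and IV and ATP synthase 5 rose (3 held) and 1 fell. The medians were -0.21 and -0.13, beside an all-gene median of -0.13. The lists had median levels of 359 and 575 CPM. Their shares that rose, 10.3 and 10.2%, were below the 38.4% of all genes over 100 CPM. The shares that fell were 7.69 and 2.04%, beside 6.04% of those genes. The counts of both lists turned with the scaling: with library totals 0 complex I genes rose and 18 fell, and 1 gene of the second list rose and 16 fell. The complex I genes that rose and are named here encode core subunits of its hydrophilic arm. Ndufs1, which carries iron-sulfur clusters, was at 295, 424 and 265 CPM in Fed and 568, 564 and 587 CPM in ADF and rose by 0.80 ± 0.19. With library totals it did not pass (adjusted p = 0.134), nor did Atp5b (0.0679), Sdhd (0.0682) or Pdk1 (0.0523). The rises of Ndufs3 (0.54) and Ndufv1 (0.54) did not hold (adjusted p 0.205 without Fed_Crtc2 1 and 0.148 without ADF_Crtc2 1). The 3 that fell encode small accessory subunits. Ndufb7 was at 494, 444 and 414 CPM in Fed and 253, 250.5 and 299 CPM in ADF (-0.75 ± 0.18), and the calls of Ndufb2 (adjusted p 0.121 without Fed_Crtc2 1) and Ndufa2 (0.133 without ADF_Crtc2 2) did not hold. In ATP synthase the alpha and beta subunits of the catalytic head rose: Atp5a1 was at 2375, 2558 and 2054 CPM in Fed and 4298, 4426 and 4562 CPM in ADF (0.93 ± 0.17), and Atp5b at 4374, 3766 and 3669.6 CPM in Fed and 6550.3, 5965 and 6487 CPM in ADF (0.69 ± 0.17). The small epsilon subunit Atp5e had -0.65 ± 0.18, a call that did not hold (adjusted p 0.124 without Fed_Crtc2 1). Core subunits among those named rose and small ones fell. Not all called subunits are named, and most of the complex I calls did not hold, so this is no rule for either complex. In GFP muscle 0 complex I genes rose and 20 fell (median -0.65), and 1 of the second list rose and 22 fell (median -0.67), beside an all-gene median of -0.01 there. The difference between the vectors passed the interaction test for 0 genes, these subunits included.

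Of 33 genes of mitochondrial import, quality control and fusion 12 rose, 10 of them held, 0 fell, and the median was 0.54 (0.25 with library totals). Their median level was 117 CPM, and the share that rose, 36.4%, was near the 38.4% of all genes over 100 CPM that rose. The outer membrane fusion protein Mfn2 was at 394, 400.3 and 468 CPM in Fed and 1266, 1084 and 1149 CPM in ADF, and its inner membrane partner Opa1 at 70.8, 111 and 60.7 CPM in Fed and 177, 189 and 186 CPM in ADF. Timm23, the channel of the inner membrane translocase, was at 32.3, 21.1 and 33.8 CPM in Fed and 58.1, 90.7 and 73.4 CPM in ADF and rose by 1.35 ± 0.26 (adjusted p = 0.00141), beside 0.08 ± 0.26 in GFP muscle. The cristae proteins Immt (1.1 ± 0.17) and Chchd3 (0.81 ± 0.17), the protease subunit Clpx (1.56 ± 0.22), the chaperone Hspa9 (0.93 ± 0.17) and the kinase Pink1 (1.16 ± 0.21), which marks damaged mitochondria for removal, rose as well. Of the mitochondrial ribosomal proteins 1 of 81 rose and 1 fell. Of 40 Slc25 carriers 5 rose (3 without ADF_Crtc2 1, Fed_Crtc2 1 or Fed_Crtc2 2) and 3 fell. The aspartate and glutamate carrier Slc25a12 was at 317, 339 and 322 CPM in Fed and 762, 751 and 743 CPM in ADF, while the iron importer Slc25a37 was at 84.8, 52.8 and 54.0 CPM in Fed and 17.4, 23 and 16.7 CPM in ADF.

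**Figure D3:**
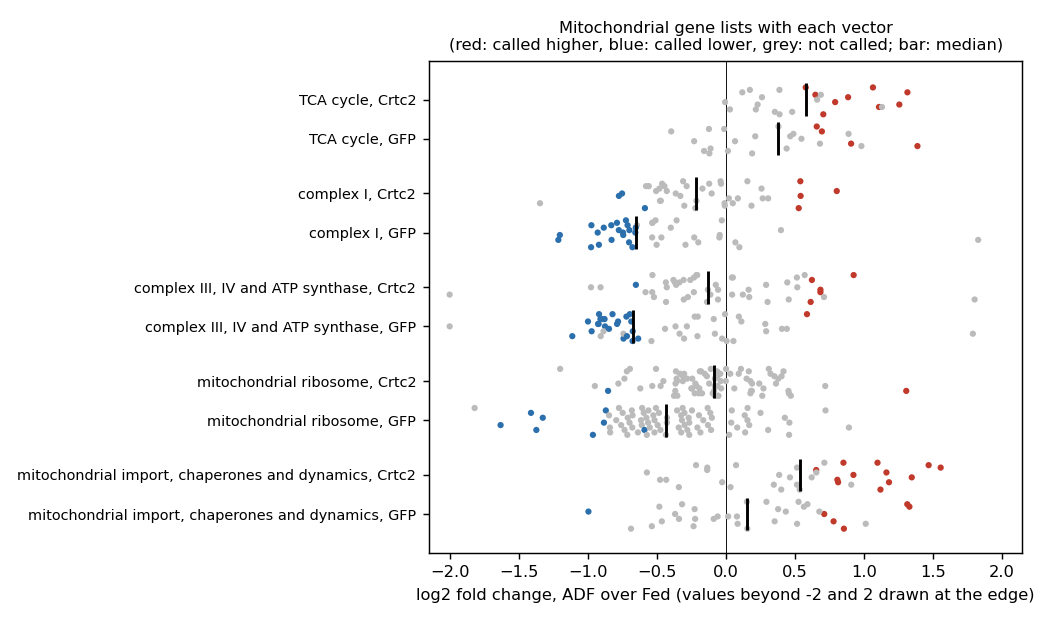
Log2 fold change of ADF over Fed for each tested member of 5 mitochondrial gene lists, in Crtc2 muscle and in GFP muscle (red called higher, blue called lower, bar at the median). In Crtc2 muscle 3 complex I genes were called lower and in GFP muscle 20, and the medians of complex I were -0.21 and -0.65.

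Glycogen genes rose on both sides of the store: 12 of 20 rose, 8 held, 0 fell, and the median was 0.93. Ugp2, which makes the sugar donor for synthesis, was at 517, 716 and 353 CPM in Fed and 1213, 1268 and 1426 CPM in ADF. Glycogenin Gyg, the primer, was at 315, 373 and 310.3 CPM in Fed and 635, 563 and 533 CPM in ADF. Laforin, Epm2a, which keeps glycogen soluble, was at 48.0, 62.1 and 71.3 CPM in Fed and 185, 135 and 158 CPM in ADF. Muscle phosphorylase Pygm, which starts breakdown, had 0.79 ± 0.21, with an adjusted p of 0.0765 without Fed_Crtc2 2. Of 22 glycolysis genes 4 rose and 2 fell, and the median changed sign with the scaling (0.29 with TMM, -0.02 with library totals). Gapdh, often taken as a reference gene, was at 637, 470.3 and 527 CPM in Fed and 960, 1043 and 1104 CPM in ADF and rose by 0.93 ± 0.18, beside 0.08 ± 0.18 in GFP muscle. Its many processed copies in the genome make its counts less certain. The lactate exporter Slc16a3 rose by 1.13 ± 0.22, and Pfkfb2, a regulator of glycolytic flux, fell by 2.24 ± 0.44. Among 21 genes of glucose uptake and insulin signalling 6 rose (2 held, 2 without ADF_Crtc2 3, 3 without ADF_Crtc2 1 or Fed_Crtc2 3) and 0 fell. Tbc1d1, which restrains Glut4 traffic until it is phosphorylated, was at 71.6, 63.5 and 78.4 CPM in Fed and 287, 244 and 266 CPM in ADF. Akt2, the insulin-responsive kinase of muscle, was at 98.9, 77.9 and 133 CPM in Fed and 269.8, 204 and 247 CPM in ADF. Irs2, an insulin receptor substrate and known Creb1 target, was low, at 2.50, 0.556 and 0.666 CPM in Fed and 11.1, 7.82 and 6.4 CPM in ADF. Its rise of 2.76 ± 0.88 (adjusted p = 0.0487) did not hold (0.175 without ADF_Crtc2 1). In GFP muscle Irs2 rose as well (adjusted p = 4.82e-05), with a fitted value of 11.5 ± 1.46. The size of that value is uncertain in a gene this low, and so is its distance from the rise in Crtc2 muscle. The interaction of Irs2 in edgeR had an unadjusted p of 3.78e-05 and an adjusted p of 0.174.

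Of 20 ubiquitin ligases linked to muscle atrophy 8 rose (7 held) and 0 fell. Their median level was 105 CPM, and their share of 40% was near the 38.4% of all genes over 100 CPM that rose. Fbxo32, atrogin-1, was at 85.1, 170 and 105 CPM in Fed and 1295, 795 and 702 CPM in ADF. Trim63, MuRF1, was at 185, 156 and 208 CPM in Fed and 1098, 523 and 327 CPM in ADF. The ADF libraries of both genes lay above the Fed libraries but far apart, with ADF_Crtc2 1 highest. Fbxo31 was at 57.4, 52.2 and 116 CPM in Fed and 371, 226 and 269.7 CPM in ADF, Wwp1 at 65.8, 126 and 99.3 CPM in Fed and 307, 296 and 275 CPM in ADF and the muscle ligase subunit Asb2 at 189, 193 and 376 CPM in Fed and 798, 665 and 637 CPM in ADF. Ubr4, which recognises destabilising protein ends, rose by 1.09 ± 0.20 and the MuRF relative Trim54 by 1.22 ± 0.23. ADF_Crtc2 1 was the highest ADF library in 8 of the 8 ligases that rose, in 7 of the 7 proteasome subunits that rose and in 570 of all 1009 rises (56.5%). Of 31 Kelch-like adaptors of cullin ligases 7 rose (4 held, 4 without ADF_Crtc2 2 or ADF_Crtc2 3) and 1 fell. Klhl21 rose by 1.53 ± 0.23 and Klhl24 by 1.48 ± 0.26, while the 1 that fell, the muscle-specific Klhl31, at 443, 463 and 469.9 CPM in Fed and 182, 238 and 213 CPM in ADF, fell by 1.12 ± 0.17. Of 37 proteasome subunits, whose median level was 127 CPM, 7 rose (1 held) and 2 fell. The share that rose, 18.9%, was below the 38.4% of all genes over 100 CPM. The median log2 fold change of the subunits changed sign between scalings (0.15 with TMM, -0.13 with library totals). The number of subunits that rose was 1 without ADF_Crtc2 1, 2 without Fed_Crtc2 1, 4 without ADF_Crtc2 2 or Fed_Crtc2 2. Psmd1, of the regulatory particle, rose by 1.14 ± 0.21. Both that fell, Psmb8 (-1.69 ± 0.49) and Psmb10 (-1.57 ± 0.46), belong to the immunoproteasome, and neither call held (adjusted p 0.26 without Fed_Crtc2 3 and 0.167 without ADF_Crtc2 1).

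In autophagy 11 of 29 genes rose (7 held, 7 without ADF_Crtc2 1, ADF_Crtc2 2 or Fed_Crtc2 1) and 0 fell. Atg9a, the scramblase that seeds the autophagosome membrane, was at 9.81, 11.3 and 15.8 CPM in Fed and 132, 118 and 115 CPM in ADF, 9.89-fold on the means (3.31 ± 0.31, adjusted p = 3.49e-07). The initiating kinase Ulk1 was at 34.9, 48.3 and 53.3 CPM in Fed and 188, 109.5 and 88.7 CPM in ADF. Map1lc3b, the protein that coats the autophagosome, was at 119.5, 106 and 124 CPM in Fed and 284, 201 and 228 CPM in ADF, and the cargo receptor Sqstm1 at 435, 471 and 529 CPM in Fed and 1057, 901 and 736 CPM in ADF. The groups did not overlap in any of these 4. Tfeb, a master regulator of lysosome genes, rose by 0.93 ± 0.21, and Npc1, which exports cholesterol from the lysosome, by 1.74 ± 0.34.

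The translation machinery moved in opposite directions. Of 28 genes of translation control and mTOR signalling 11 rose (8 held) and 0 fell, whereas of 86 cytosolic ribosomal protein genes 0 rose and 19 fell. Repressors were among the rises. Eif4ebp1, which blocks cap-dependent initiation, was at 60.5, 39.0 and 51.4 CPM in Fed and 204, 105 and 87.5 CPM in ADF, and Akt1s1, an inhibitory partner of mTORC1, at 103, 80.5 and 128 CPM in Fed and 211, 185 and 199 CPM in ADF. Factors that carry out translation rose too. Eef1a2, the elongation factor of adult muscle, was at 561, 366 and 461 CPM in Fed and 2586, 2250.3 and 2069.8 CPM in ADF (2.32 ± 0.20, adjusted p = 8.65e-08), and Eef2 at 746, 679 and 812 CPM in Fed and 2027, 1612 and 1645 CPM in ADF. The initiation scaffold Eif4g1 was at 267, 278 and 434 CPM in Fed and 977, 892 and 864 CPM in ADF. The ribosomal proteins were lower by small steps, with a median of -0.48 against -0.13 for all genes. In 37 of them the 3 ADF libraries lay below the 3 Fed libraries (15.7% of all genes tested) and in 0 above (14.8%). Rpl41 was at 213, 184 and 202 CPM in Fed and 107, 93.2 and 104 CPM in ADF, and Rps21 at 217, 186 and 262 CPM in Fed and 103, 95.5 and 134 CPM in ADF. The count rested on single libraries: 4 of the 19 calls held, and 7 genes fell without Fed_Crtc2 3, without ADF_Crtc2 2 or without ADF_Crtc2 3. With library totals 45 fell. Ribosomal protein genes have many processed pseudogenes, so single members are uncertain. Of the stress response to unfolded proteins, Ppp1r15a, which restarts translation by reversing eIF2 phosphorylation, was at 16.9, 11.0 and 22.7 CPM in Fed and 84.7, 48.9 and 44.7 CPM in ADF and rose, while Ddit3, the factor CHOP of the same response, was at 69.0, 45.5 and 57.3 CPM in Fed and 11.7, 14.6 and 18.5 CPM in ADF and fell.

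**Figure D4:**
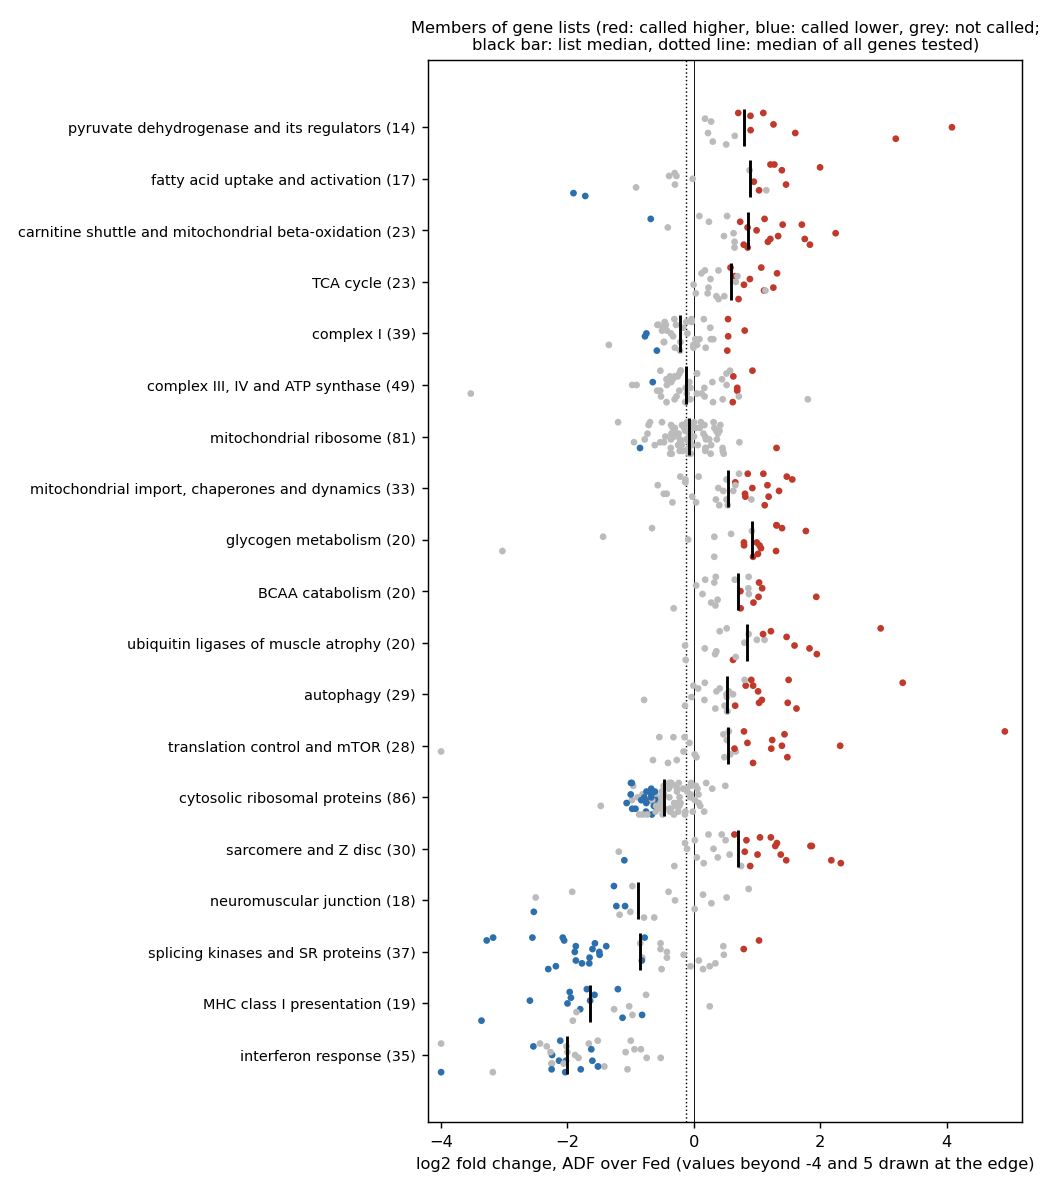
Log2 fold change of ADF over Fed for each tested member of 19 gene lists in Crtc2 muscle, with the number tested in brackets (red called higher, blue called lower, grey not called, bar at the list median, dotted line at the all-gene median of -0.13). The medians of glycogen (0.93) and beta-oxidation (0.85) lie to the right of that line, those of splicing (-0.85) and interferon response (-2.0) to the left.

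Hormone and energy regulators were among the called genes. Of 20 glucocorticoid targets 10 rose (50%, 8 held) and 0 fell, at a median level of 52.5 CPM. Of all genes between 30 and 100 CPM, 14.3% rose and 8.27% fell. Klf9, a repressor induced by the glucocorticoid receptor, was at 20.2, 30 and 45.1 CPM in Fed and 216, 207 and 198 CPM in ADF. The factor Cebpd was at 4.38, 6.83 and 5.48 CPM in Fed and 50.4, 19.2 and 28.1 CPM in ADF, and Zbtb16 at 33.2, 20.8 and 36.2 CPM in Fed and 172, 94.2 and 64.3 CPM in ADF. In Klf9 the 3 ADF libraries were close together, and in Cebpd and Zbtb16 ADF_Crtc2 1 was highest. Of 25 FoxO factors and energy stress genes 6 rose (24%, 4 held) and 2 fell (8%, near the 8.27% of all genes between 30 and 100 CPM). Their median level was 39 CPM. Foxo4, at 92.1, 93.3 and 126 CPM in Fed and 363, 275 and 279.8 CPM in ADF, rose by 1.56 ± 0.24. Subunits of the energy sensor AMPK diverged: the catalytic Prkaa2 had 0.98 ± 0.29, a call that did not hold (adjusted p 0.146 without Fed_Crtc2 3), and the regulatory Prkag3, typical of fast fibres, was at 218, 214 and 387 CPM in Fed and 80.2, 63.6 and 71.3 CPM in ADF and fell by 1.93 ± 0.25 (adjusted p = 2.6e-05). Of the Redd family of mTOR inhibitors, Ddit4l, at 374, 324 and 288 CPM in Fed and 89.6, 126 and 102 CPM in ADF, fell, opposite to the rise of Ddit4 (2.66 ± 0.40). In the list of PPAR, ERR and PGC-1 regulators 8 of 26 rose (3 held, 3 without Fed_Crtc2 2, 4 without ADF_Crtc2 3 or Fed_Crtc2 1) and 0 fell. The share that rose was 30.8% at a median level of 29.6 CPM. It stands beside 2.99% of all genes between 10 and 30 CPM and 14.3% of those between 30 and 100 CPM. Perm1, a muscle partner of PGC-1 and ERR, was at 302, 252 and 268 CPM in Fed and 531, 479 and 517 CPM in ADF, and the corepressor Ncor1 at 61.9, 74.3 and 75.0 CPM in Fed and 182, 139 and 140 CPM in ADF. Ppargc1a, PGC-1alpha itself, was at 31.4, 38.1 and 16.4 CPM in Fed and 45.4, 28.9 and 51.9 CPM in ADF, overlapped between the groups and did not pass the test (adjusted p = 0.404).

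Some genes of the cyclic AMP pathway and a few listed Creb1 targets were called. Of 29 adrenergic and cyclic AMP signalling genes 6 rose (20.7%, 5 held) and 2 fell (6.90%). Upstream, the stimulatory G protein gene Gnas was at 4.34, 8.63 and 12.7 CPM in Fed and 32.7, 32.7 and 31.8 CPM in ADF, and the cyclase Adcy9 at 1.33, 3.99 and 7.96 CPM in Fed and 26.0, 19.6 and 35.1 CPM in ADF. Gnas is an imprinted locus with overlapping transcripts, so its counts are less certain. Of the protein kinase A subunits, Prkar2a was at 83.1, 87.3 and 92.0 CPM in Fed and 282, 227 and 259 CPM in ADF and Prkacb at 9.50, 25.4 and 20.6 CPM in Fed and 58.7, 41.0 and 44.4 CPM in ADF. Pde4d, which degrades cyclic AMP, was at 11.1, 21.4 and 16.4 CPM in Fed and 190.4, 135 and 125 CPM in ADF and rose by 3.20 ± 0.25 (adjusted p = 6.4e-08). It rose by 2.07 ± 0.24 in the GFP muscles, and the interaction had an unadjusted p of 0.00265 and an adjusted p of 0.516. Adcy7, a cyclase typical of blood and immune cells, fell, at 4.57, 11.3 and 6.81 CPM in Fed and 0.259, 0 and 0.676 CPM in ADF. Among 25 listed targets of Creb1 and its coactivators 3 rose (12%, 2 held) and 2 fell (8%, 0 held). Of 11 family members and salt-inducible kinases 0 rose and 0 fell. The median levels of the signalling, target and family lists were 24.9, 14.2 and 19.3 CPM. Of all genes between 10 and 30 CPM, 2.99% rose and 8.15% fell. In GFP muscle 4 of the listed targets rose and 0 fell, with a median of 0.62 beside 0.06 in Crtc2 muscle. Of the family members and kinases 1 rose there and 0 fell. The nuclear receptor Nr4a1 was at 122, 128 and 178 CPM in Fed and 162, 158 and 117 CPM in ADF (adjusted p = 0.971), and its relative Nr4a3 at 14.2, 6.86 and 4.22 CPM in Fed and 35.8, 16.4 and 15.6 CPM in ADF (adjusted p = 0.399, 0.0463 with no filter on low counts and 0.0416 with a replicate block over the 6 Crtc2 libraries). Sik1, a kinase that holds Crtc2 in the cytoplasm and is itself a target, was at 24, 18.5 and 13.3 CPM in Fed and 13.6, 27.5 and 18.2 CPM in ADF (adjusted p = 0.943). None of these 3 passed the test in Crtc2 muscle, and the groups overlapped in Nr4a1 and Sik1. In GFP muscle Nr4a3 rose by 4.05 ± 1.04 (adjusted p = 0.0328), and its interaction did not pass the test (adjusted p = 0.67).

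Circadian genes were called in both directions: 4 of 21 rose and 3 fell. The median level of the list was 54.7 CPM. Of all genes between 30 and 100 CPM, 14.3% rose and 8.27% fell, so calls in both directions were not particular to this list. The nuclear receptor Rora, which activates clock genes, was at 29.3, 32.4 and 38.4 CPM in Fed and 109, 80.2 and 74.5 CPM in ADF and rose. The repressors Per2, at 26.0, 18.4 and 29.9 CPM in Fed and 3.28, 10.8 and 6.86 CPM in ADF, and Per3, at 68.8, 104 and 105 CPM in Fed and 17.8, 32.9 and 20.2 CPM in ADF, fell. Per1, which glucocorticoids and Creb1 can induce directly, went the opposite way, at 14.8, 29.9 and 54.1 CPM in Fed and 110.3, 85.2 and 85.9 CPM in ADF. The output factor Dbp had -1.13 ± 0.26, a call that did not hold (adjusted p 0.0614 without Fed_Crtc2 3). Sampling hours are not in the labels, and the part of time of day in these values was not tested.

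Promoters were searched for sites of the factors named above. Windows from 250 bases before to 50 after a start site were matched by symbol for 11096 genes tested, 798 of those that rose and 569 of those that fell (RefSeq, GRCm38.p6). The full cyclic AMP response element TGACGTCA stood on either strand in 3.26% of genes that rose, 3.87% of those that fell and 3.36% of all. Its core TGACG, which the full site contains, stood in 39.5% of genes that rose, 30.4% of those that fell and 33.7% of all. The FoxO site GTAAACA stood in 4.39, 2.99 and 3.16% of the same 3 sets, the E-box CACGTG in 11, 10 and 11.4%, and the estrogen-related receptor site TCAAGGTCA in 0.376, 0.351 and 0.333%. The full glucocorticoid response element was found in 1 gene that rose and 3 in all. These shares describe letters in a window, not binding. The 250 bases before the start are shown for 3 genes with a FoxO match, Trim63 and Klf9, which rose, and the SR protein gene Srsf6, which fell, and for 3 with a full cyclic AMP response element, Ppp1r15a and Ogdh, which rose, and the splicing kinase gene Clk4, which fell. They show that either motif stood before genes of both directions. Each runs 5′ to 3′ on the gene's strand and ends 1 base before the start site. Capitals mark only the FoxO or full cyclic AMP match, read on either strand.
Trim63 chr4:134314870-134315119 (plus strand): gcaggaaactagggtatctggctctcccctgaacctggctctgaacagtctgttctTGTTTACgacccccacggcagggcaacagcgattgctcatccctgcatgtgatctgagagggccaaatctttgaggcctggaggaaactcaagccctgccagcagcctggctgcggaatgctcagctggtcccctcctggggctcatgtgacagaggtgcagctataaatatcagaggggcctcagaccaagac
Klf9 chr19:23140976-23141225 (plus strand): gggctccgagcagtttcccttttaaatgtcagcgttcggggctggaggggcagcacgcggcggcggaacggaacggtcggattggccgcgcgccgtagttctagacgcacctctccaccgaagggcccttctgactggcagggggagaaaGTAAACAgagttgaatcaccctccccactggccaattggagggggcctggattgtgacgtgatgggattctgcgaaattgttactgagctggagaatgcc
Srsf6 chr2:162931258-162931507 (plus strand): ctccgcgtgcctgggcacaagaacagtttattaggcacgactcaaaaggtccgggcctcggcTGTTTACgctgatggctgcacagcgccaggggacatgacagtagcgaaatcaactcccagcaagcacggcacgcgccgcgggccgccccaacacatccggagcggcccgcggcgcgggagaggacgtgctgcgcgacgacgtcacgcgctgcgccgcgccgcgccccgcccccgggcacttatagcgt
Ppp1r15a chr7:45526269-45526518 (minus strand): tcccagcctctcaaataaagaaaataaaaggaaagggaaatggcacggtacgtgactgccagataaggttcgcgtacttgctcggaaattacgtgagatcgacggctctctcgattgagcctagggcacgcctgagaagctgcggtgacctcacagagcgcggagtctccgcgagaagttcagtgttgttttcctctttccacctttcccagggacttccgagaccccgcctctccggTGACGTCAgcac
Ogdh chr11:6291347-6291596 (plus strand): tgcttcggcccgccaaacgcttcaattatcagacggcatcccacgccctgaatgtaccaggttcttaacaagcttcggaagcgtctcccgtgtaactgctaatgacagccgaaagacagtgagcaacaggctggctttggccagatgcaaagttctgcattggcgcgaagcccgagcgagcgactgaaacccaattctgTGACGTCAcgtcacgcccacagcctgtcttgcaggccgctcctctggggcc
Clk4 chr11:51262864-51263113 (plus strand): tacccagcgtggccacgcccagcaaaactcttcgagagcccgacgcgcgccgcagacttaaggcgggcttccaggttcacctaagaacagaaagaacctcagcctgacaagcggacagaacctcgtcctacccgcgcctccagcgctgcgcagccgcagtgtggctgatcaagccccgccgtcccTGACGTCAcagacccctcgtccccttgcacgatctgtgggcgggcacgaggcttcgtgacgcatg
The FoxO match starts 194 bases before the start site in Trim63, 100 in Klf9 and 188 in Srsf6. The cyclic AMP response element starts 12, 51 and 65 bases before it in Ppp1r15a, Ogdh and Clk4. The Ogdh window is that of 1 of its 6 start sites.

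Sarcomere and Z disc genes rose in 15 of 30 (11 held) and fell in 1 (median 0.69, 0.39 with library totals). Skeletal actin Acta1 had the highest mean level per length of all genes in the 6 libraries, 18372 CPM per kb in Fed and 37150.3 CPM per kb in ADF muscle. It was at 28342, 23589 and 32726 CPM in Fed and 55721, 58072 and 57395 CPM in ADF and rose by 1.02 ± 0.18 (adjusted p = 0.000489). The giant thin filament protein nebulin, Neb, was at 2931, 2876 and 2472 CPM in Fed and 8492, 6319.8 and 6664 CPM in ADF. Myom1, which links thick filaments at the M line, was at 1326, 1249.5 and 1486 CPM in Fed and 3829, 3067 and 3027 CPM in ADF. Myoz3, a calcineurin-binding Z disc protein of fast fibres, was at 15.8, 10.2 and 21.8 CPM in Fed and 80.6, 88.7 and 69.9 CPM in ADF. In these 4 genes each ADF library was above each Fed library. The stretch-responsive Ankrd23 was at 1106, 732 and 2100 CPM in Fed and 5516, 4218 and 4637 CPM in ADF, with a wide spread among the Fed libraries. Of 19 myosin chains 2 rose and 6 fell, and 1 and 1 held. The number that fell was 2 without ADF_Crtc2 1, ADF_Crtc2 3 or Fed_Crtc2 1. Myh4, the fast IIb heavy chain, was at 19971, 16842 and 47651 CPM in Fed and 31009, 31447 and 23428 CPM in ADF, and slow Myh7 at 8.68, 3.68 and 8.33 CPM in Fed and 14.9, 3.4 and 0.356 CPM in ADF. Neither passed the test (adjusted p = 0.989 and 0.957), and their groups overlapped. The abundant fast light chain Mylpf had -0.64 ± 0.19, a call that did not hold (adjusted p 0.161 without Fed_Crtc2 1). Regulators of muscle mass did not pass the test: Mstn, myostatin, was at 5.79, 7.79 and 17.7 CPM in Fed and 17.4, 19.6 and 24 CPM in ADF (adjusted p = 0.208), and Igf1 at 1.56, 29.4 and 10.5 CPM in Fed and 2.63, 9.52 and 9.56 CPM in ADF (adjusted p = 0.583). Fgf21, the fasting hormone, did not pass the filter on low counts: it had 56 counts in Fed_Crtc2 1, 37 in ADF_Crtc2 2 and 0 in the other 4 libraries.

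Several abundant genes that carry the electrical signal to calcium release rose. The sodium channel Scn4a was at 169, 148 and 175 CPM in Fed and 500, 363 and 373 CPM in ADF. The voltage sensor Cacna1s was at 251, 216 and 264 CPM in Fed and 1021, 793 and 801 CPM in ADF, and the release channel Ryr1, which it opens, at 2070.4, 1705 and 2278 CPM in Fed and 5029, 3962 and 4007 CPM in ADF. Atp2a1, the calcium pump of fast fibres, was at 12355, 9849 and 14842 CPM in Fed and 39022, 33859.5 and 31446 CPM in ADF and rose by 1.49 ± 0.18 (adjusted p = 1.25e-05). Of 29 calcium handling genes 8 rose (5 held, 5 without ADF_Crtc2 1 or Fed_Crtc2 2), and the 1 that fell was sarcolipin, Sln, an inhibitor of that pump. It was at 241, 243 and 103 CPM in Fed and 40.1, 38.9 and 26.4 CPM in ADF, with Fed_Crtc2 3 lowest of the Fed libraries. Its log2 fold change was -2.48 ± 0.29 here and -0.93 ± 0.28 in the GFP muscles (adjusted interaction p in edgeR 0.415, unadjusted 0.000675). Of 24 membrane channels and pumps 8 rose (5 held) and 1 fell. The shares that rose, 27.6 and 33.3%, were below the 38.4% of all genes over 100 CPM, and the median levels of the lists were 317 and 100.2 CPM. Kcnj11, the pore of the ATP-sensitive potassium channel, was at 12.3, 8.90 and 8.29 CPM in Fed and 68.8, 50 and 79.8 CPM in ADF, and Kcna7, a voltage-gated potassium channel, at 159.8, 173 and 181 CPM in Fed and 429.9, 403 and 418 CPM in ADF. The medians of both lists changed sign between TMM and library totals, from 0.04 to -0.22 for calcium handling and from 0.23 to -0.06 for channels and pumps. At the neuromuscular junction 0 of 18 genes rose and 4 fell (2 held, 2 without ADF_Crtc2 1, ADF_Crtc2 2, Fed_Crtc2 1 or Fed_Crtc2 2). The acetylcholine receptor subunit Chrnb1 was at 115, 101 and 71.9 CPM in Fed and 44.3, 41.5 and 49.8 CPM in ADF. The adult subunit Chrne was at 8.68, 41.8 and 35.4 CPM in Fed and 5.53, 6.87 and 2.45 CPM in ADF, where Fed_Crtc2 1 was far below the other Fed libraries.

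Many RNA processing genes and some nuclear RNAs fell. Rsrp1, Neat1, Pnisr, Ddx17, Snrnp70 and Malat1 were among the 15 falls with the smallest adjusted p. Of 37 splicing kinases and SR proteins 20 fell (18 held) and 2 rose, with a median of -0.85 beside -0.13 for all genes, and the number that fell stayed between 18 and 22 in each alternative fit. Rsrp1, an arginine and serine rich protein, was at 835, 933 and 855 CPM in Fed and 97.8, 92.7 and 79.9 CPM in ADF (-3.28 ± 0.19, adjusted p = 1.08e-09). Pnisr, of the same kind, was at 213, 227 and 225 CPM in Fed and 25, 25.1 and 23.5 CPM in ADF. The SR protein Srsf1, which selects splice sites, was at 134, 159 and 107 CPM in Fed and 24.4, 33.1 and 38.9 CPM in ADF, and Srsf6 at 130.2, 107 and 93.9 CPM in Fed and 31.7, 22.9 and 24.1 CPM in ADF. In Rsrp1 and Pnisr the libraries of a group were close together, and in all 4 genes the groups were far apart. The kinase Clk1, which phosphorylates SR proteins, was at 81.1, 124 and 87.9 CPM in Fed and 12.4, 16.8 and 20.6 CPM in ADF, and its relative Clk4 at 97.2, 102 and 62.9 CPM in Fed and 28.2, 34.2 and 20.7 CPM in ADF. The RNA helicase Ddx17 was at 229.6, 227 and 226 CPM in Fed and 22.2, 24.8 and 32.5 CPM in ADF, and the U1 particle protein Snrnp70 at 319, 244 and 290.3 CPM in Fed and 41.5, 43.6 and 38.6 CPM in ADF. Ogt, which attaches O-GlcNAc to proteins, was at 296, 296 and 221 CPM in Fed and 42.4, 56.4 and 44.6 CPM in ADF. Of 22 noncoding and nuclear-retained RNAs 6 fell (27.3%, 4 held) and 0 rose, at a median level of 10.4 CPM. Of all genes between 10 and 30 CPM, 8.15% fell. Neat1, the scaffold of paraspeckles, was at 2705, 2478 and 1838 CPM in Fed and 194, 245 and 291 CPM in ADF. Malat1, of nuclear speckles, was at 621, 484 and 467 CPM in Fed and 71.9, 51.1 and 64.7 CPM in ADF, and the imprinted Meg3 at 68.7, 74.7 and 47.7 CPM in Fed and 1.6, 2.61 and 6.4 CPM in ADF. GFP muscle had 18 falls in the first list and 4 in the second.

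Genes of MHC class I presentation and the interferon response fell, while 0 class II genes passed the test. Of 19 genes of MHC class I presentation 12 fell (6 held) and 0 rose (median -1.64), and of 35 interferon response genes 12 fell (7 held) and 0 rose (median -2.0). Of 10 MHC class II genes 0 fell and 0 rose in edgeR (median -0.82), 2 had an unadjusted p under 0.05, and DESeq2 called 1 lower. In GFP muscle 3 class I genes fell (median -0.51) and 2 interferon genes (median -0.94), with 0 rises. The class II genes had 0 calls and a median of 0.54 there. Ifitm3, an antiviral membrane protein, was at 121, 126 and 132 CPM in Fed and 33.4, 50.2 and 41.0 CPM in ADF. Irf9, which carries the interferon signal to the nucleus, was at 30.2, 15.6 and 23.4 CPM in Fed and 4.75, 6.83 and 5.30 CPM in ADF. The peptide transporter Tap2 was at 33.1, 17.1 and 41.6 CPM in Fed and 9.42, 8.57 and 5.83 CPM in ADF, and the proteasome activator Psme2 at 53.1, 38.1 and 70.8 CPM in Fed and 22.2, 15.4 and 14.4 CPM in ADF. The class I gene H2-Q6 was at 26.3, 37.6 and 62.0 CPM in Fed and 2.85, 9.16 and 8.78 CPM in ADF, uncertain because near-identical neighbours share its reads. Fed_Crtc2 3 was the highest library in Tap2, Psme2 and H2-Q6, and without it 6 class I genes and 8 interferon genes fell. Without ADF_Crtc2 1 the number was 7 in each list. Markers of T and NK cells were also highest in Fed_Crtc2 3: the 9 markers summed to 14.7, 13.7 and 69.3 CPM in the Fed libraries and to 3.70 to 4.88 CPM in the ADF libraries, 1 of the 9 fell, and Cd3g and Gzma were at 0 in all 3 ADF libraries. Their part in the result was not tested. The 9 macrophage markers overlapped between the groups (216 to 320 CPM in Fed, 182 to 276 CPM in ADF), as did the 10 muscle fibre markers, which include defining genes of the labelled tissue (134090 to 227280 and 212530 to 239410 CPM). The 6 Schwann cell markers summed to 46.8 to 107 CPM in Fed and 117 to 252 CPM in ADF muscle, and 0 of them passed the test.

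The 8 endothelial markers summed to 492 to 673 CPM in Fed and 269 to 354 CPM in ADF muscle, and 3 of them fell. Egfl7, a secreted endothelial protein, was at 120.5, 173 and 129 CPM in Fed and 30.2, 35.2 and 36.1 CPM in ADF. Pecam1, which joins endothelial cells, was at 110.4, 128 and 109 CPM in Fed and 77.6, 87.8 and 79.4 CPM in ADF and did not pass the test (adjusted p = 0.211). Vegfa, the vessel growth factor that fibres secrete, was at 612, 479 and 436 CPM in Fed and 179, 179 and 216 CPM in ADF and fell, while its relative Vegfb was at 126, 111 and 113 CPM in Fed and 219, 209 and 266 CPM in ADF and rose. Cytoplasmic actin Actb was at 597, 685 and 737 CPM in Fed and 237, 264 and 228 CPM in ADF (-1.47 ± 0.21), opposite to Acta1. The Igf carrier Igfbp5 was at 365, 698 and 586 CPM in Fed and 108, 186 and 179 CPM in ADF. Of 38 collagens 2 fell and 0 rose. Col7a1, of anchoring fibrils, was at 149, 80.2 and 106 CPM in Fed and 6.22, 15.8 and 5.87 CPM in ADF, and Col24a1 at 23.4, 42.5 and 48.2 CPM in Fed and 1.17, 1.46 and 3.52 CPM in ADF. Some falling genes were at 0 in all 3 ADF libraries. Cd46, a complement regulator, was at 14.9, 3.37 and 4.96 CPM in Fed muscle, at least 65.5-fold higher against a floor of 3 counts per library, and the helicase Mov10 at 2.81, 3.96 and 8.55 CPM, at least 43.2-fold higher. A group stood at 0 in 41 of the 749 genes that fell.

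Of 30 heat shock proteins 6 rose (20%, 4 held) and 1 fell. Antioxidant genes rose in 4 of 29 (13.8%, 4 held) and fell in 1. Of 15 iron and oxygen genes 6 rose (40%, 3 held, 3 without ADF_Crtc2 1 or Fed_Crtc2 2) and 0 fell. The median levels of the lists were 66.2, 114 and 110.3 CPM, where 14.3% of all genes between 30 and 100 CPM and 38.4% of those over 100 CPM rose. Dnaja4, a cochaperone of Hsp70, was at 27.0, 26.3 and 24.3 CPM in Fed and 157, 115 and 109.7 CPM in ADF. Hspb7, a small heat shock protein of muscle, was at 901, 720.3 and 435 CPM in Fed and 2485, 1405 and 1904 CPM in ADF, while Hspb3 was at 81.6, 59.2 and 81.0 CPM in Fed and 24.1, 22.2 and 18.3 CPM in ADF and fell. Nfe2l1, a factor that drives proteasome and antioxidant genes, was at 635, 576 and 508 CPM in Fed and 1511, 1109 and 1208 CPM in ADF. The iron exporter Slc40a1 was at 12.1, 11.5 and 7.22 CPM in Fed and 51.9, 34.0 and 47.0 CPM in ADF, and the oxygen sensor Egln1 at 219, 169 and 214 CPM in Fed and 477, 361 and 429 CPM in ADF. Both rose, whereas the iron importer of mitochondria described above fell. Of 30 cell cycle genes 0 rose and 2 fell (0 held), and of 36 matrix and remodelling genes 0 rose and 1 fell, beside 7 and 0 in GFP muscle.

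The same contrast in GFP muscle ran largely parallel. Of the 1009 genes that rose in Crtc2 muscle, 97.3% had a positive log2 fold change in GFP muscle, where 650 genes rose (4.06% of those tested). The genes called higher in both were 473, which is 46.9% of the Crtc2 rises and 72.8% of the GFP rises. Of the 749 falls 92.8% had a negative value there, and 288 were called in both, 38.5% of the Crtc2 falls and 58.8% of the 490 GFP falls (3.06%). Over 7666 genes that averaged 10 CPM or more the log2 fold changes of the 2 vectors correlated with r = 0.735, a description across genes, which are not independent replicates. The interaction, the response in Crtc2 muscle minus that in GFP muscle, passed the test for 0 genes with edgeR (smallest adjusted p = 0.174), 1240 genes had an unadjusted p under 0.05 (7.75%), and DESeq2 called 111. The genes named by the smallest interaction p included 3 of the cytoskeleton and its partners. Tagln2, an actin-binding transgelin, was at 99.0, 87.4 and 88.8 CPM in Fed_Crtc2, 18.3, 26.7 and 26.3 CPM in ADF_Crtc2, 63.0, 36.5 and 87.2 CPM in Fed_GFP and 57.8, 76.3 and 60.2 CPM in ADF_GFP (interaction in edgeR: unadjusted p of 3.15e-05, adjusted p of 0.174). Tubb5, a beta tubulin, was at 110, 99.5 and 108 CPM, 40.9, 31.8 and 36.4 CPM, 94.6, 67.8 and 113 CPM and 98.9, 82.7 and 82.3 CPM in the same order (interaction in edgeR: unadjusted p of 6.56e-05, adjusted p of 0.174). The LIM protein Crip1 was at 97.9, 55.0 and 97.4 CPM, 23.1, 20.4 and 36.3 CPM, 69.0, 75.9 and 76.2 CPM and 87.0, 61.3 and 74.5 CPM. In all 3 the ADF_Crtc2 libraries lay below each of the other 9. Rrad, a small GTPase of muscle, had a log2 fold change of -3.12 ± 0.55 in Crtc2 muscle and 0.03 ± 0.50 in GFP muscle. Erlin2, of the endoplasmic reticulum, had -1.92 ± 0.45 in Crtc2 muscle and 0.99 ± 0.44, the opposite sign, in GFP muscle. On the other side stood Stard10, a lipid transfer protein, the 1 gene called in opposite directions: it had 0.77 ± 0.23 in Crtc2 muscle (adjusted p = 0.0287, and 0.114 without ADF_Crtc2 2) and -0.83 ± 0.23 in GFP muscle (adjusted p = 0.026). The cochaperone Dnajc21, at 46.3, 58.3 and 57.9 CPM in Fed and 118, 100.4 and 142 CPM in ADF, rose by 1.15 ± 0.22 in Crtc2 muscle beside -0.11 ± 0.21 in GFP muscle. Lrrc39, a sarcomere protein, rose by 1.08 ± 0.19 beside -0.02 ± 0.19. With 0 genes past the interaction test in edgeR, none of these is shown to respond differently by vector.

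**Figure D5:**
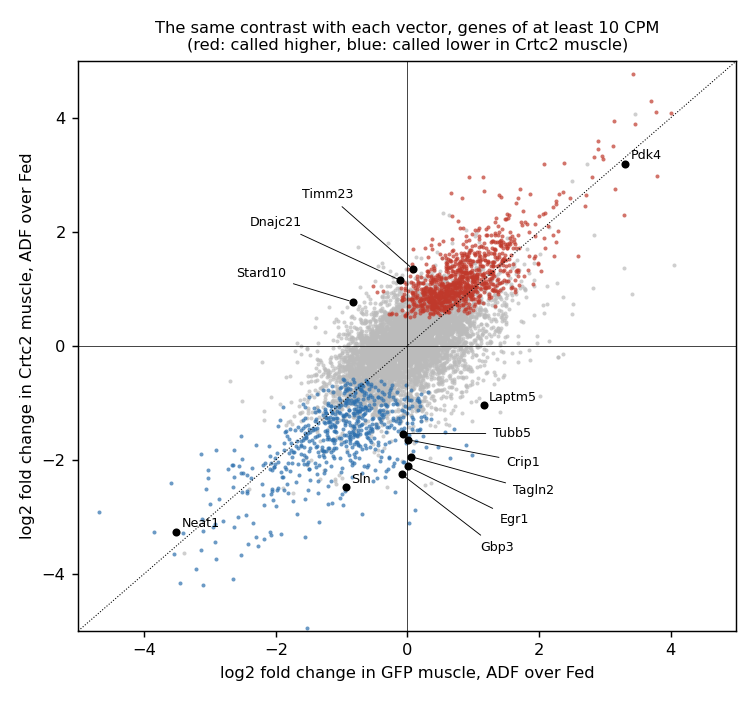
Log2 fold change of ADF over Fed in GFP muscle (horizontal) and in Crtc2 muscle (vertical) for 7662 genes that averaged 10 CPM or more in the Crtc2 libraries. The dotted line marks equal change, 4 more genes lie outside the axes, and Tagln2, Tubb5 and Crip1 lie below the line at a GFP value near 0.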

How the data were processed

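RNA from tibialis anterior muscle was sequenced in 12 libraries, 3 per group, and the 6 Crtc2 libraries are described here. Whole-number read counts for each gene, not normalized, were deposited by the authors. Per the submitters' processing notes, the builds were GRCm38 and mm10 and the tools DESeq2 1.18.1, Subread 1.6.1 (featureCounts), SAMtools 1.7 and HISAT2 2.0.5. The annotation and the strand setting are not given in the sources used here. Of the values from 2 to 21 in the Crtc2 libraries, 71.4 to 74.7% were even, and counts halved and rounded were tried as an alternative.

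Genes were filtered and fitted across all 12 libraries and 4 groups with edgeR 4.0.16 (R 4.3.3, limma 3.58.1): filterByExpr, TMM factors, robust quasi-likelihood fit, Benjamini-Hochberg adjustment over 16007 genes, threshold 0.05. Depth was 24771100 to 31484693 counts per library. The test was tried on simulated data. CPM used effective library sizes. Log CPM, used for the principal components and the correlations of library deviations, had a prior count of 2. A fold against a group at 0 used a floor of 3 counts per library. Positions came from GENCODE M21, which held 99.9% of the identifiers.

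Named genes followed a rule: 20 fixed genes, the 15 smallest adjusted p in each direction, the 10 largest fold changes and CPM changes, members of 58 gene lists past the threshold, 6 interaction genes in each direction and the highest levels per length. Some that the rule takes are not reported here, and the genes outside it are Pecam1 and Gzma, markers. The members and lists were chosen with earlier results of these data known. Alternatives were DESeq2 1.42.0, library totals, other filters, the 6 Crtc2 libraries alone, a replicate block and leaving out each library. With 3 libraries against 3 an exact permutation test of a single value cannot give a p below 0.1, so none is given.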

Additional observations from a re-analysis of the deposited data

How the results depend on the processing

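Of 1009 rises and 749 falls, library totals in place of TMM gave 511 and 1234, DESeq2 1151 and 1354, genes of at least 10 CPM 938 and 947, no filter 1133 and 950, the 6 Crtc2 libraries alone 1023 and 745, and halved counts 1033 and 798. Leaving out 1 library gave 658 to 888 rises, 471 to 570 falls and 1129 to 1456 calls in all, fewest without ADF_Crtc2 1. The interaction, with 0 calls, gave 111 with DESeq2, 67 with no filter and 0 to 2 when 1 library was left out. The causes of these shifts were not tested. Deviations from the group mean of Fed_Crtc2 and ADF_Crtc2 libraries with the same number correlated at 0.0195, -0.0238 and -0.071. Those of GFP and Crtc2 libraries with the same number and diet ran from -0.123 to 0.0945. With 3 libraries a group these values cannot decide whether libraries are paired. A replicate block gave 978 rises and 686 falls over 12 libraries and 899 and 598 over the 6 Crtc2 libraries.

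Among the genes named, 5 that had not passed the test changed sign. Myh4 was at -0.00285 with DESeq2, -0.22 with library totals and -0.0795 among genes of at least 10 CPM, and ran from -0.24 to 0.64 without 1 library. Nr4a1 was at -0.25 with library totals, -0.0777 among genes of at least 10 CPM and -0.0027 with the replicate block over 12 libraries, and ran from -0.0692 to 0.22 without 1 library. Sik1 was at -0.20 and -0.0203 with the first 2 of these, and ran from -0.23 to 0.31. Without 1 library Igf1 ran from -1.46 to 0.26 and Myh7 from -1.88 to 0.41. With library totals 13 named genes lost their call, Gyg, Prkacb, Prkaa2 and Mpc1 among them, and DESeq2 and halved counts cost 0 their call. Genes under 3 CPM have the fewest counts: of 5148, 0 rose and 51 fell, and the part of depth in this was not tested.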
